A study of Mus musculus with 44 samples.

Results

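Malat1, Neat1, Meg3, Rian, Mirg, Miat, Snhg11 and Kcnq1ot1 are long RNAs of the mouse that are kept in or near the nucleus and, for the most part, are not translated. They were chosen by symbol, as a gauge of nuclear RNA carried into ribosome and synaptosome preparations, with earlier results of these data known. All 8 were found among the 50714 genes counted in every library. The tissue was dorsal cortex and hippocampus of mice aged 28 to 29 days, all with the genotype CX3CR1-CreERT2 (+/-) x RPL10a-GFP flox (+/-) per the sample labels, controls included; the series text gives RPL10a-GFP as fl/fl. In these mice tamoxifen switches on a Cre recombinase driven from Cx3cr1, a gene of microglia that border macrophages and monocytes also use, and Cre lets the cell make a ribosomal protein tagged with GFP. Tamoxifen mice received 100 mg/kg on days 15, 17 and 19. Control mice received vehicle on those days per the sample labels, although the series text calls them untreated. Each letter from A to K named 4 libraries. Input was RNA of the whole homogenate, and MG_TRAP was the RNA that came down with tagged ribosomes from that homogenate (TRAP, translating ribosome affinity purification). SN_input was RNA of a synaptosome fraction, which concentrates pinched-off nerve endings and the glial processes attached to them. PeMP_TRAP, named SN_TRAP in the later libraries, was the ribosome pull-down from that fraction, intended to hold RNA translated in peripheral microglial processes. Control mice were A to C, and tamoxifen mice were D to F in a first set and G to K in a second set. There were therefore 44 libraries, with 3 control and 8 tamoxifen libraries in each fraction. The labels do not say that each letter is 1 animal, so p-values measure the spread between libraries.

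As background, Malat1 sits in nuclear speckles, bodies rich in splicing factors, and Neat1 is the RNA scaffold of paraspeckles. Meg3, Rian and Mirg are transcribed in a row from the maternal copy of the imprinted Dlk1-Dio3 region and host small RNAs. Miat, also called Gomafu, forms its own nuclear bodies in neurons and binds splicing factors. Snhg11 is a neuronal transcript whose introns hold small nucleolar RNAs. Kcnq1ot1 is made from the paternal copy of an imprinted region and silences its neighbours from within the nucleus. Breaking a cell open for a homogenate leaves some nuclear RNA in solution, whereas a synaptosome fraction is prepared after nuclei have been spun away.

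Sequences of these RNAs bear on how they are kept in the nucleus and on how a library from polyadenylated RNA sees them. Mature Malat1 and the long form of Neat1 are known to end not in a poly(A) tail but in a tract of encoded A bases that folds against U-rich stretches upstream. The first 2 lines hold those ends, read from GENCODE M21 transcripts of GRCm38 (5′ to 3′, with T for U), and the capitals mark every stretch of 10 or more bases that both windows share. The Malat1 window is on the minus strand at chr19:5795958-5796089, 268 bases before the end of the gene model. It runs on past the tract of A bases, whereas the Neat1 line stops with that tract. The Neat1 window is the last 90 bases of the model, on the minus strand at chr19:5824708-5824797. The third line is from Miat, on the minus strand at chr5:112216732-112216832, and its capitals mark TACTAAC, the letters of a strong splicing branch point.
Malat1: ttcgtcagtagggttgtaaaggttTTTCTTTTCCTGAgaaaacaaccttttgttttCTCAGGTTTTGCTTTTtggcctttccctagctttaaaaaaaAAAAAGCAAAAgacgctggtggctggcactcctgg
Neat1: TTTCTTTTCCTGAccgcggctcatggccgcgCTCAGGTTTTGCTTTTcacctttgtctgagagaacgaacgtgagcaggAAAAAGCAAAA
Miat: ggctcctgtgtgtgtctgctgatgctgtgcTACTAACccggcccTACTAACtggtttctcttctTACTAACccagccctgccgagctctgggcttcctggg

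Among 4190 genes with a transcript of at least 5000 bases, the 13-base stretch TTTCTTTTCCTGA was present on the transcript strand of 7 (0.167%). The 16-base stretch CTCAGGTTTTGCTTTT was present in 2 (0.0477%), which are Malat1 and Neat1 themselves. AAAAAGCAAAA was commoner, in 117 genes (2.79%). TACTAAC occurred 6 times in the Miat transcript, 4 times in Kcnq1ot1, once in Neat1 and not in the other 5. At least 1 copy was in 16.8% of the 4190 transcripts, and as many copies as in Miat were in 2 genes (0.0477%). The libraries were made with SMART-Seq v4, which primes on runs of A. The longest run of A was 12 bases in Malat1, 298 bases before the end of its model, and 7 in Neat1. It was 16 bases in Meg3, 15 in Rian and 41 in Kcnq1ot1, but 8 in Snhg11, 5 in Mirg and 4 in Miat. A run of at least 12 was present in 23.0% of the 4190 transcripts. What part such internal priming plays in the counts was not tested.

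By the M21 annotation of their identifiers, Malat1 (ENSMUSG00000092341, chr19:5795690-5802672) and Neat1 (ENSMUSG00000092274, chr19:5824708-5845478) are neighbours on the minus strand, and each is a single exon. Meg3 (ENSMUSG00000021268, chr12:109541001-109571726), Rian (ENSMUSG00000097451, chr12:109603940-109661716) and Mirg (ENSMUSG00000097391, chr12:109729764-109749460) follow each other on the plus strand. Annotated small RNA genes inside them number 2 miRNAs in Meg3, 4 miRNAs and 13 small nucleolar RNAs in Rian, and 14 miRNAs in Mirg. Snhg11 (ENSMUSG00000044349, chr2:158375638-158386145, plus strand) holds 2 small nucleolar RNAs and is classed as protein-coding in that release. Miat (ENSMUSG00000097767, chr5:112213228-112229395) lies on the minus strand, and 30.4% of its exon bases are shared with 5 other genes. Kcnq1ot1 (ENSMUSG00000101609, chr7:143203458-143296549) overlaps Kcnq1 on the opposite strand. The kit does not keep strand, so reads of the 2 strands cannot be told apart there, and reads in shared bases of Miat may have been set aside as ambiguous.

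Assigned reads per library ran from 746616 to 35584637, and levels are given as CPM, counts scaled to an equal total of assigned reads in every library. A count of 0 still allows an expected count of up to 3, which came to between 0.0847 and 4.05 CPM. These floors cover counting error only. Microglial RNA checked the labels. The 15 genes of a microglial list summed to 335 to 657 CPM in Input of the 11 letters. In tamoxifen mice all 15 rose in MG_TRAP over Input and in PeMP_TRAP over SN_input, with Cx3cr1 higher by 6.56 and 2.91 on the log2 scale. Control MG_TRAP, where by design no tag was to be made, still held 4476 to 9969 CPM of that list, against 23175 to 57791 in tamoxifen MG_TRAP. Control PeMP_TRAP libraries stood apart from each other. In control A, 25.1% of reads fell in no annotated feature, and in control B 47.7% did not align. Control C, at 3.43% and 6.72%, had neither feature. The labels name cell type "Mixed" for Input, and its neuronal and microglial markers were both present.

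The 8 RNAs together took up a smaller share of the assigned reads in the synaptosome fraction than in the homogenate of the same letter, for all 11 letters. In tamoxifen mice of the first set the share was 0.433%, 3.27% and 3.40% in Input (D, E, F), and 0.0405%, 0.0717% and 0.101% in SN_input. In the second set it was 0.204% to 0.298% in Input and 0.00713% to 0.0200% in SN_input (n = 5 each). MG_TRAP lay between these, at 0.0924%, 0.514% and 0.735% in the first set and 0.0338% to 0.0744% in the second. Tamoxifen PeMP_TRAP held 0.0391%, 0.0348% and 0.331% in the first set and 0.00528% to 0.0144% in the second, so the synaptosome pull-down and its own input covered overlapping ranges in both sets. Within each fraction the second set was lower than every first-set library, and set and library preparation cannot be told apart. Mitochondrial transcripts took 15.3% to 66.0% of assigned reads in tamoxifen SN_input, against 1.19% to 12.6% in Input, which lowers every other gene's share. With them left out of the total, the mean share in first-set tamoxifen SN_input was 0.1765% in place of 0.0710%.

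**Figure D1:**
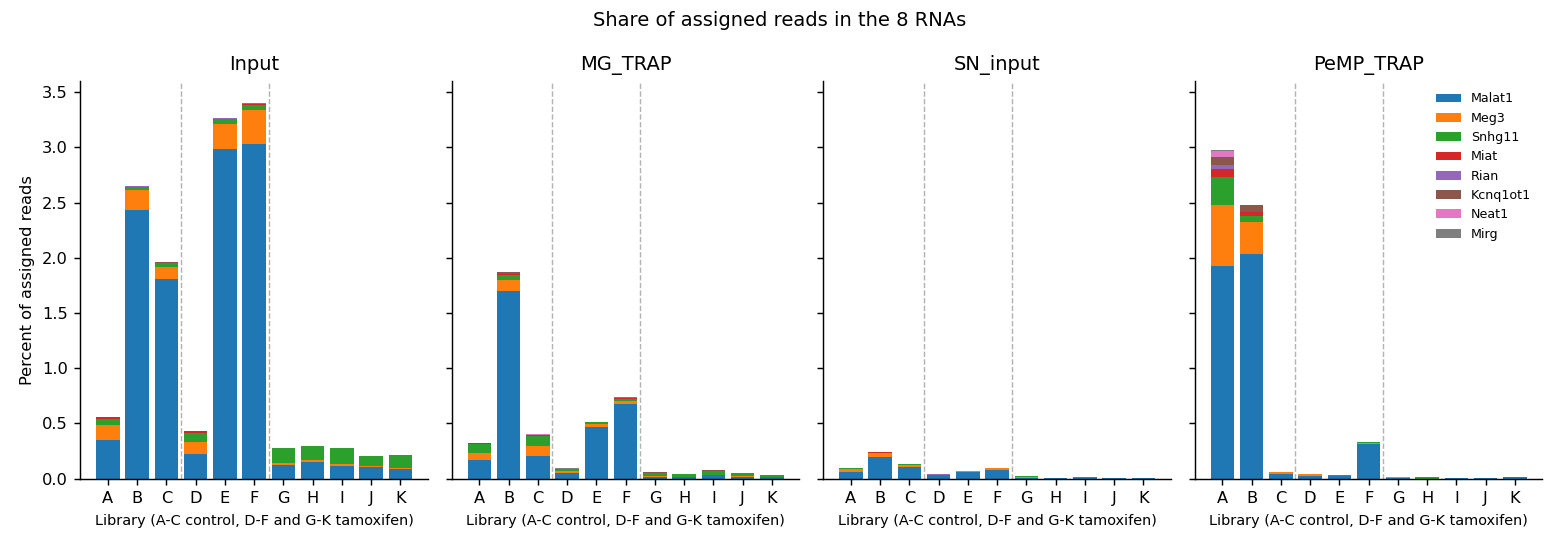
Share of assigned reads taken by each of the 8 RNAs (stacked bars, percent) in each of the 44 libraries, by fraction, treatment and letter. Malat1 fills most of each first-set Input bar, control PeMP_TRAP A and B stand at 2.97% and 2.48%, and control C at 0.0638%.

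Malat1 made up most of those reads in first-set tamoxifen libraries of every fraction (52.3% to 95.2%), whereas in second-set Input, MG_TRAP and SN_input it shared them with Snhg11. In second-set PeMP_TRAP Malat1 supplied 59.0% to 99.9% in G, I, J and K and 7.0% in H. It supplied 89.1% to 92.2% of the reads of the 8 RNAs in Input of B, C, E and F, and 61.9% and 52.5% in Input of A and D. For every 100 Malat1 reads there were 38.7 and 46.4 Meg3 reads in Input A and D, against 6.2 to 10.0 in the other 4 first-set Input libraries. In second-set Input Snhg11 supplied 41.4% to 53.8% of the reads of the 8 RNAs and Malat1 39.0% to 52.1%. In second-set MG_TRAP Snhg11 supplied more than Malat1 in 5 of 5 libraries (51.4% to 60.6%, against 31.0% to 39.5%). Compared per length in second-set Input, as RPKM (CPM per kilobase of exon), Malat1 stood at 167 ± 38.2 and Snhg11 at 142 ± 25.6 (SD, n = 5), neighbours in the order that did not differ beyond their spread. Meg3 followed at 9.08 ± 1.13, then Miat at 0.626 ± 0.122 and Rian at 0.502 ± 0.063, whose values lay within about 1 SD of each other. Mirg (0.120 ± 0.0266), Neat1 (0.0288 ± 0.0100) and Kcnq1ot1 (0.0124 ± 0.00856) were lowest. In first-set tamoxifen Input the order was Malat1 (2980 ± 2299 RPKM), Meg3 (117 ± 55.0) and Snhg11 (68.8 ± 24.5; SD, n = 3), with Mirg last.

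**Figure D2:**
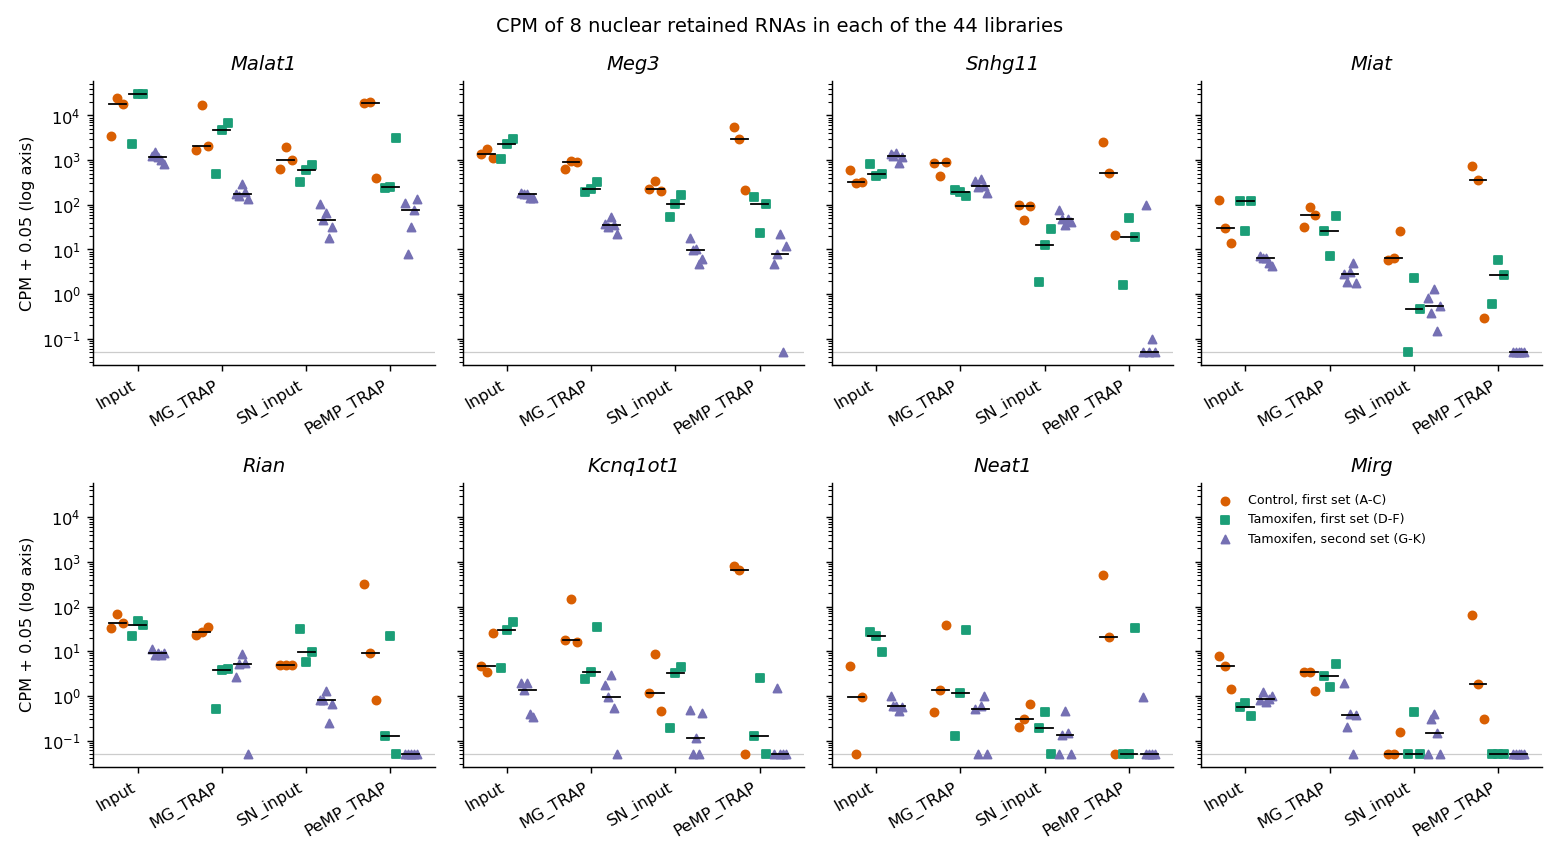
CPM plus 0.05 (log axis) of each of the 8 RNAs in every library, by fraction, treatment and set, where points are libraries and bars are group medians. Malat1 in tamoxifen SN_input (18.4 to 798 CPM) lies below all tamoxifen Input values (837 to 30332 CPM).

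Between homogenate and synaptosome fraction, the question is how far nuclear RNA was left behind. In tamoxifen mice, 3 of the 8 RNAs fell and none rose: the speckle RNA Malat1, the imprinted Meg3 and the snoRNA host Snhg11. Among all 15710 genes tested 2.55% changed and 0.465% fell. The estimates for all 8 RNAs were below 0, with a median of -2.56 on the log2 scale, against -0.02 for all genes tested.

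Malat1 was at 2273, 29827 and 30332 CPM in Input of D, E and F and at 317, 591 and 798 CPM in SN_input. In the second set (G to K) it was at 1256, 1550, 1158, 1020 and 837 CPM in Input and at 103, 45.4, 64.0, 18.4 and 31.3 CPM in SN_input. Every SN_input value was below every Input value, as for 9.78% of all genes tested, although the sets differ widely in level. Malat1 fell by 3.66 on the log2 scale (SE 0.55, edgeR adjusted p = 1.70e-05). Within the second set alone it fell by 3.71 (SE 0.58, adjusted p = 0.00031), the 1 call of the 8 where 3.89% of all genes tested changed. Within the first set alone the estimate was -3.72 (adjusted p = 0.307), with 0 of the 8 called and 0.0463% of all genes.

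Meg3 was at 1053, 2289 and 3023 CPM in first-set Input and at 53.9, 102 and 166 CPM in SN_input. In the second set it was at 182, 179, 177, 145 and 140 CPM in Input and at 18.1, 9.68, 10.1, 4.76 and 6.0 CPM in SN_input. Within each set the fractions did not overlap, and Meg3 fell by 3.03 (SE 0.64, adjusted p = 0.00301). Snhg11 was at 827, 452 and 479.8 CPM in first-set Input and at 1.79, 12.3 and 28.2 CPM in SN_input. In the second set it was at 1355, 1231, 1425, 865 and 1155 CPM in Input and at 77.0, 48.9, 35.6, 47.6 and 41.8 CPM in SN_input. Unlike Malat1 and Meg3, Snhg11 was not lower in the second set, and its fractions were separate over both sets. It fell by 3.70 (SE 1.06, adjusted p = 0.048), and the call was lost on leaving out any single letter (adjusted p = 0.071 to 0.112) and with the letter as a block (0.0526).

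The other 5 RNAs did not pass the test. Neat1 and Miat had lower CPM in SN_input in 8 of 8 letters with no overlap of the fractions. On that scale, which mitochondrial reads lower in SN_input, 30.5% of all genes tested were lower in every letter and 9.78% also did not overlap. Neat1 was at 0 to 0.399 CPM against 0.410 to 26.4 CPM, and 7 of its 8 SN_input libraries held 3 counts or fewer. Over D to F, 587 Neat1 reads in Input, 457 of them from D, stood against 4 in SN_input, 3 of them from E. Over G to K the counts were 53 against 8, 6 of the 8 from I. Miat, the RNA with the TACTAAC repeats, ran from 4.27 to 122 CPM in Input and from 0 to 2.20 CPM in SN_input (estimate -2.86, adjusted p = 0.232). Mirg was lower in 8 of 8 letters, and Rian and Kcnq1ot1 were lower in 7 of 8. Rian stood at 32 CPM in SN_input of D against 22.2 CPM in its Input, the 1 reversal for that RNA. For Mirg the counts were 75 against 9 in the second set and 13 against 3 in the first. Whether the sets differed in these changes was tested, and 0 of the 8 RNAs passed (0 at an unadjusted p under 0.05, and 0 with DESeq2). Of all genes tested 0.0% passed with edgeR, 3.45% had an unadjusted p under 0.05 and 1.38% passed with DESeq2. The same test for MG_TRAP against Input also gave 0 of the 8 by each of the 3 counts, where 0.0%, 5.96% and 1.81% of all genes did.

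Scaling matters to the background here. TMM scaling gave 327 genes higher and 73 lower in SN_input, DESeq2's size factors in edgeR gave 134 and 109, and total counts gave 93 and 230. These scalings moved the median of all genes by -0.71 and -1.02 on the log2 scale, and 3 of the 8 RNAs were called with each. In bulk RNA, fewer cells of a type and less RNA per cell cannot be told apart. The 15 microglial genes moved the other way in the same libraries, with 14 higher in SN_input, and so were 4 of 10 astrocyte markers (median 1.85), 3 of 11 oligodendrocyte markers (1.80) and 2 of 9 mRNAs known from dendrites (0.99). The 14 neuronal markers gave no call (median -0.25). On the CPM scale the neuronal list summed to 10828 to 14443 in first-set and 13203 to 13715 in second-set Input, and to 3713 to 8589 and 4190 to 4789 in SN_input. The part of neuronal RNA in the falls of the 3 RNAs was not tested.

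**Figure D3:**
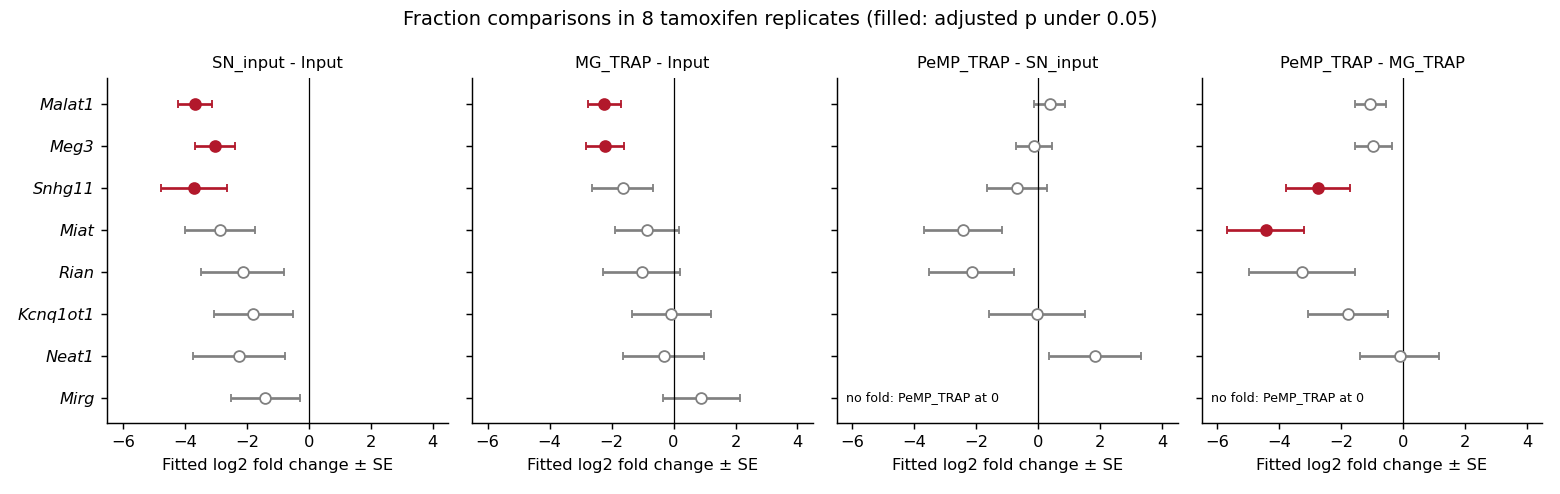
Log2 fold change with its SE for each of the 8 RNAs in 4 comparisons of tamoxifen libraries (32 libraries), where filled points have an adjusted p under 0.05. Malat1 and Meg3 are filled and below 0 in both comparisons with Input (Malat1 -3.66 and -2.23), and Mirg carries no fold where PeMP_TRAP was at 0.

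In the ribosome pull-down from homogenate, the question is how much of these untranslated RNAs came along with tagged ribosomes. In tamoxifen mice 2 of the 8 fell in MG_TRAP against Input, Malat1 and Meg3, while 6.82% of all genes tested changed and 2.15% fell. Malat1 was at 483, 4703 and 6752 CPM in MG_TRAP of D, E and F, and at 175, 161, 293, 192 and 133 CPM in G to K. Each was below the Input of its letter, though first-set MG_TRAP and second-set Input overlapped. The log2 fold change was -2.23 (SE 0.52, adjusted p = 0.00371). Meg3 was at 191, 229 and 317 CPM in D to F and at 38.0, 32.6, 53.5, 34.7 and 22.5 CPM in G to K. Like Malat1 it was lower in 8 of 8 letters, as were 17% of all genes tested. It fell by 2.21 (SE 0.62, adjusted p = 0.0183), a call lost when E, F or H was left out. In the second set alone Malat1 was the 1 call of the 8 (6.5% of all genes tested), and in the first set alone 0 passed (2.54%).

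Snhg11 was at 154 to 382 CPM in the 8 MG_TRAP libraries (median 231) and at 452 to 1425 CPM in Input (median 1010), with no overlap, as for 3.97% of all genes tested. Its estimate of -1.64 did not pass the test (adjusted p = 0.462). Rian was lower in 8 of 8 letters and Miat in 7 of 8, without a call, and Kcnq1ot1 (-0.07) and Neat1 (-0.32) had estimates close to 0. Neat1 in F was at 29.5 CPM, against 0 to 1.11 CPM in MG_TRAP of the other 7 letters. Mirg was split evenly, higher in 4 letters and lower in 4. Beside these values, 4 of 14 neuronal markers fell in MG_TRAP (median -1.76), among them Syt1 (-1.45), and the 8 RNAs had a median of -0.94. What part the loss of neuronal RNA had in the falls of Malat1 and Meg3 was not tested. With DESeq2's size factors 594 genes were higher and 528 lower in MG_TRAP, against 733 and 338 with TMM.

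In PeMP_TRAP of tamoxifen mice, the abundant nuclear RNAs gave no call against SN_input. Malat1 was at 238, 246 and 3153 CPM in D to F and at 107, 8.03, 31.1, 75.0 and 132 CPM in G to K, higher than SN_input in 4 letters and lower in 4. The estimate was 0.37 (SE 0.50, adjusted p = 0.613). Meg3 was at 151, 23.3 and 105 CPM in D to F and at 4.69, 7.81, 21.7, 0 and 12.2 CPM in G to K. Its estimate was -0.14. The spread of Malat1 over the 5 second-set libraries, from 8.03 to 132 CPM, was wider than in SN_input of those letters. In the same comparison 11 of 14 neuronal (median -2.23), 10 of 11 oligodendrocyte (-2.67), 5 of 10 astrocyte (-2.45) and 4 of 7 endothelial markers were lower. The median of all genes tested was -0.75, and the part of other cell types in the values of Malat1 and Meg3 was not tested.

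The single call among the 8 RNAs against SN_input was Mirg, where 32.3% of all genes tested changed and 26.1% fell, a share that leaves 1 call in 8 with nothing to read. Mirg had 0 reads in all 8 tamoxifen PeMP_TRAP libraries and 0 to 0.388 CPM in SN_input (adjusted p = 0.0065). The mean in SN_input was below what 0 reads still allow in PeMP_TRAP, so no fold is given. Snhg11 shows how uneven these libraries were. It was at 1.59, 49.5 and 18.9 CPM in D to F, at 97.1 CPM in H, at 0.0491 CPM in J, and at 0 in G, I and K. In H it made up 84.9% of all reads from the 8 RNAs. Its estimate against SN_input was -0.68, without a call.

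Rian and Miat had 0 reads in all 5 second-set PeMP_TRAP libraries, which held 20442643 to 35584637 assigned reads. These libraries were deep but held few genes: 5372 to 7369 genes had a read, against 14955 to 16876 in SN_input of the same letters, and the bounds below cover the counting of reads only. In SN_input of the same letters Rian was at 0.765, 0.758, 1.26, 0.198 and 0.600 CPM, at least 4.86-fold higher, and Miat at 0.765, 0.337, 1.26, 0.0992 and 0.480 CPM, at least 4.0-fold higher (mean over the highest floor of a library). In the first set both were present in PeMP_TRAP, Rian at 0.0794, 21.7 and 0 CPM and Miat at 0.556, 5.63 and 2.7 CPM. The difference between the sets in the change from SN_input passed the test for Rian (adjusted p = 0.0411) and for Miat (adjusted p = 0.00458), where 15.1% of all 17961 genes tested did, 14.9% in this direction. For Rian it turned from -5.71 to 0.91 when all libraries of letter E, at 21.7 CPM in PeMP_TRAP, were left out. Not both calls held with DESeq2's size factors in edgeR, with no filter or with the letter as a block. Within the second set alone Rian, Mirg and Miat were lower than in SN_input, where 43.6% of all genes tested changed, and within the first set alone 0 of the 8 passed, where 2.87% did. Kcnq1ot1 was at 0.0794, 2.41 and 0 CPM in D to F and at 1.42 CPM in H, and at 0 in the other 4. Neat1 was at 33.8 CPM in F and 0.903 CPM in G, and at 0 in the other 6.

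Between the pull-downs, PeMP_TRAP against MG_TRAP, 3 of the 8 RNAs were lower (Mirg, Miat and Snhg11), where 25.2% of all genes tested changed and 22.0% were lower. Miat was at 25.4, 7.07 and 57.1 CPM in MG_TRAP of D to F and at 2.79, 1.78, 3.07, 5.01 and 1.68 CPM in G to K, above PeMP_TRAP in 8 of 8 letters. The log2 fold change was -4.44 (SE 1.24, adjusted p = 0.0075). That of Snhg11 was -2.74 (SE 1.02, adjusted p = 0.0441), a call lost without D, F, G, I, J or K. In the second set MG_TRAP was at least 19.5-fold higher than PeMP_TRAP for Miat, at least 29.4-fold for Rian and at least 3.65-fold for Mirg. The Mirg bound rests on G, at 1.88 CPM where the other 4 letters were at 0 to 0.342 CPM, and is 1.37-fold without it. These 3 RNAs were the calls within that set alone, where 42.6% of all genes tested changed, and 0 of the 8 passed within the first set alone (0.0% of all genes). Malat1 and Meg3 were, like Miat, lower in 8 of 8 letters, as were 8.55% of all genes tested. The estimates of -1.06 for Malat1 (adjusted p = 0.124) and -0.96 for Meg3 did not pass. The set difference passed for Rian (adjusted p = 0.00225) and Miat (adjusted p = 0.0227), where 15.3% of all genes tested did, 14.8% in this direction. Both calls were lost without E (adjusted p = 0.165 and 0.126), and that of Miat also with no filter and with the letter as a block.

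The 2 pull-downs thus started from inputs with very different amounts of these RNAs, and the change on pull-down was compared between them directly. For Malat1 the change from SN_input to PeMP_TRAP exceeded the change from Input to MG_TRAP by 2.60 on the log2 scale (SE 0.71, adjusted p = 0.0135), a call lost without K (2.31, adjusted p = 0.0555). Mirg went the other way (adjusted p = 0.0244), a call lost with DESeq2, with no filter, with the letter as a block and without G, H or I, and Meg3 had an estimate of 2.07 that did not pass (adjusted p = 0.113). Among all genes tested 11.3% passed, 0.388% in the direction of Malat1 and 10.9% in that of Mirg. The difference for Malat1 was 2.66 within the second set alone (adjusted p = 0.00993), where 4 of the 8 and 29.5% of all genes tested passed, and 0 of the 8 passed in the first set alone (0.0%).

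Control mice, by design, were not to make tagged ribosomes. Whether their pull-downs were free of tag was not tested, and all 15 microglial genes had estimates above 0 in control MG_TRAP against Input (median 3.48, with 0 called). In control PeMP_TRAP the 8 RNAs took 2.97% and 2.48% of assigned reads in A and B, more than in Input of the same letters for A (0.561%) and close to it for B (2.65%), and 0.0638% in C. Malat1 was at 19260, 20361 and 406 CPM, Meg3 at 5534, 2901 and 210 CPM, and Kcnq1ot1 at 790, 644 and 0 CPM in A, B and C. Neat1, the paraspeckle RNA, was at 504 CPM in A, 21.3 CPM in B and 0 in C. Against control SN_input all 8 estimates were higher, by 3.6 to 8.90 on the log2 scale. None passed with edgeR (adjusted p = 0.174 to 0.230) and 8 had an unadjusted p under 0.05, against 0.0% and 17.4% of all 14771 genes tested. With DESeq2 8 passed, against 10.1% of all genes it tested. In control C, Malat1 was at 406 CPM in PeMP_TRAP and at 1029 CPM in SN_input.

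Tamoxifen against control in PeMP_TRAP of the first set gave 6 of the 8 RNAs lower, where 11.1% of all genes tested changed and 5.56% were lower. The log2 fold change was -4.57 for Meg3 (SE 1.00, adjusted p = 0.0072), -4.92 for Snhg11 (SE 1.22, adjusted p = 0.0116) and -6.55 for Miat (SE 1.74, adjusted p = 0.0174). It was -8.70 for Kcnq1ot1 (SE 2.19, adjusted p = 0.013), whose reads in tamoxifen libraries were few, and -3.71 for Malat1 (SE 1.17, adjusted p = 0.0355). Mirg, at 64.9, 1.77 and 0.246 CPM in the controls and 0 in D to F, was at least 5.51-fold lower with tamoxifen (adjusted p = 0.0484). That bound rests on A, and none holds without it. The calls depend on which libraries are kept. With the 4 libraries of a letter left out, 2 calls remained without F (Malat1 and Meg3) and 3 without D (Meg3, Snhg11 and Kcnq1ot1). Without the PeMP_TRAP library of control A, 4 of the 8 were called (Meg3, Miat, Snhg11 and Kcnq1ot1; 10.1% of all genes tested). With C as the only control 0 were called (6.82% of all genes tested), with the estimate for Malat1 at 1.38 in the other direction. A fit with 1 control library takes its spread from the other groups. Markers of other cell types moved in the same comparison. Higher were 11 of 15 microglial genes, and lower were 5 of 14 neuronal, 4 of 11 oligodendrocyte, 2 of 10 astrocyte and 3 of 7 endothelial markers (medians -2.61, -2.19, -1.48 and -8.44). The endothelial list summed to 2280, 476 and 331 CPM in control A, B and C, against 3.22 to 348 CPM in D to F. The neuronal list summed to 3513, 9697 and 10248 CPM in control A, B and C, against 724 to 2026 CPM in tamoxifen PeMP_TRAP of both sets. The part of these cell types in the differences was not tested.

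**Figure D4:**
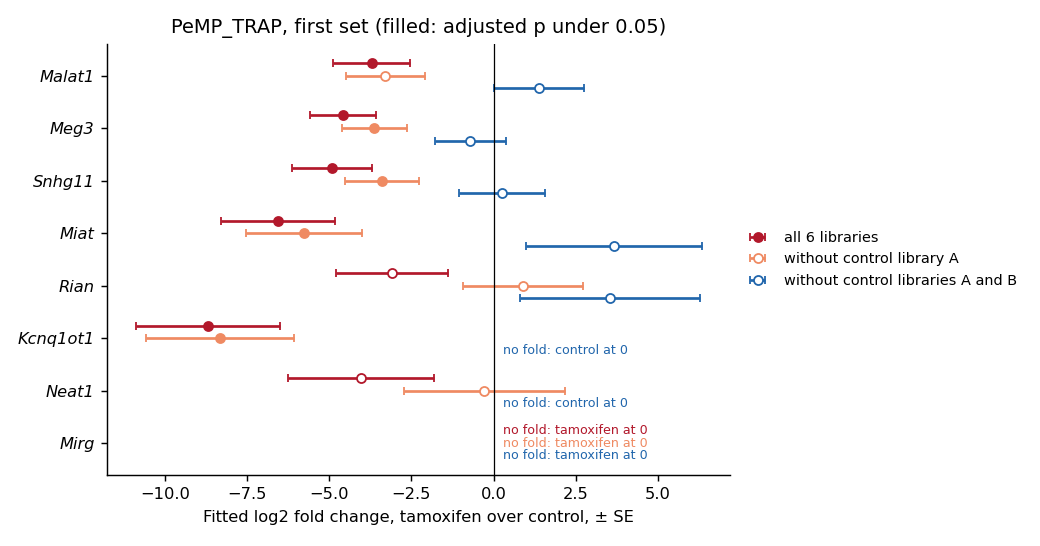
Log2 fold change with its SE of tamoxifen over control in PeMP_TRAP of the first set, with all 3 control libraries, without control A, and without controls A and B, where filled points have an adjusted p under 0.05. With all 3, Malat1 is at -3.71, and without A and B it is at 1.38, with no RNA of the 8 called.

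In the other 3 fractions tamoxifen against control gave 0 calls among the 8 RNAs in Input, MG_TRAP and SN_input (0 at an unadjusted p under 0.05 and 0 with DESeq2 in each). Among all genes tested 0.0% passed with edgeR in each. In the same order 3.06%, 15.9% and 3.35% had an unadjusted p under 0.05, and 0.339%, 6.12% and 0.451% passed with DESeq2. Control Input held Malat1 at 3473, 24296 and 18046 CPM and control SN_input at 647, 1972 and 1029 CPM. Each SN_input value was below each Input value, as for 12.2% of all genes tested. All 8 estimates of that gap in control mice were below 0. With 3 letters 0 passed with edgeR, against 0.0% of all genes tested. An unadjusted p under 0.05 was reached by 3 of the 8, against 6.84% of all genes, and 0 passed with DESeq2, against 0.938%. Malat1 in control MG_TRAP was at 1679, 17004 and 2098 CPM, below Input in 3 of 3 letters, as were 15.1% of all genes tested. Snhg11 was above Input in 3 of 3, and the estimates of Neat1 (2.77), Kcnq1ot1 (2.49), Snhg11 (0.84) and Miat (0.11) were above 0. For MG_TRAP against Input in control mice 0 of the 8 passed, against 0.0135% of all genes tested. The difference between treatments in the pull-down changes gave 0 calls. For MG_TRAP against Input 0 of the 8 had an unadjusted p under 0.05 and 0 passed with DESeq2, where 9.19% and 1.56% of all genes did and 0.0% passed with edgeR. For PeMP_TRAP against SN_input 1.24% of all genes tested passed with edgeR. There 6 of the 8 had an unadjusted p under 0.05, against 19.8% of all genes, and 5 passed with DESeq2, against 14.5%.

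Related RNAs give the 8 a frame. Of 11 other nuclear or primary-transcript long RNAs tested, 1 fell from Input to SN_input, Ftx, an RNA of the X-inactivation centre (-4.95, SE 1.33, adjusted p = 0.0319). The list had a median of -0.66. Mir124a-1hg, a host of a neuronal miRNA, had an estimate of -3.52 without a call (adjusted p = 0.107), and Tug1 of -0.11. Of 9 host RNAs of small nucleolar RNAs that leave the nucleus, such as Gas5 (1.30) and Zfas1 (1.06), 0 passed in either direction (median 0.66). In control mice, where 0 genes of either list passed, the medians of these hosts and of the 8 RNAs were -1.74 and -2.0. The spliced RNAs of these snoRNA hosts are known to be taken up by ribosomes and decay in the cytoplasm. Messenger RNAs of 13 nuclear body proteins, among them Son (-0.50) and Srrm2 (-0.35), gave 0 calls (median -0.68). In PeMP_TRAP against MG_TRAP, 4 of the 11 other nuclear RNAs were lower, where 22.0% of all genes tested were, and 1 of the 9 snoRNA hosts, Gas5, was higher (1.66, SE 0.53, adjusted p = 0.0172).

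Across all 44 libraries, the 8 RNAs varied together to differing degrees. The highest Pearson correlation of log2 CPM between members was that of Malat1 and Meg3 (0.889), and the lowest that of Snhg11 and Neat1 (0.393), over libraries that share set, depth and fraction. Of 4524 well-measured genes, those most like Malat1 were Myl12b (r = 0.77), Tuba1b (0.74) and Pcp4 (0.72). Snhg11 had the closest companions, 2010300C02Rik (0.91), Pja2 (0.91) and Tango2 (0.90), and Rian followed with Ahi1 (0.82), Erc2 (0.80) and Cacna2d3 (0.79). For Meg3 they were 1700020I14Rik (0.75), B230219D22Rik (0.74) and Atp6v1e1 (0.73). Miat was most like Usp19 (0.75), Cttnbp2 (0.74) and Ahi1 (0.73), and the same 3 genes came first for Mirg, at 0.58 each. Kcnq1ot1 was most like Tcf4 (0.67), Son (0.66), whose protein is a core of nuclear speckles, and 1700020I14Rik (0.63). Neat1 had Luc7l3 (0.60), Snrnp70 (0.55) and Usp19 (0.52).

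The authors' deposited table for the first set lists 13634 genes, of which 13611 are protein-coding in M21. Snhg11 is the only one of the 8 RNAs in it. There the authors' deposited table gives Snhg11 a log2 fold change of -6.0 for SN_input against Input (adjusted p = 0.0185), -0.98 for MG_TRAP against Input (0.556) and -0.60 for PeMP_TRAP against SN_input (0.656).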

How the data were processed

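The authors deposited HTSeq counts, whole reads per Ensembl gene. Per the submitters' processing notes the tools were FastQC 0.11.7, Trimmomatic 0.38, Bowtie2 2.3.5, STAR 2.7.0d, HTSeq 0.9.1 and, for the first set, edgeR; their options, the build and the annotation are not given in the sources used here. The 2 sets listed 54146 and 55359 identifiers; the 50714 shared ones, all in GENCODE M21, were used, and the rest held 0.0232% to 0.795% of assigned reads. The authors' deposited table of log2 fold changes and p-values (edgeR, per its headers) was only quoted. Counts were tested with edgeR 4.0.16 in R 4.3.3 (TMM, filterByExpr with a minimum count of 10, quasi-likelihood test, two-sided, Benjamini-Hochberg over all genes tested, threshold 0.05): fraction changes on the 32 tamoxifen libraries with set as covariate, set differences with 1 mean per fraction and set, and control or treatment comparisons on the 24 first-set libraries. A call means an adjusted p under that threshold. Alternatives were DESeq2 1.42.0, other scalings, no filter, mitochondrial genes left out, each set alone, a block on the letter and leaving out letters. On simulated counts edgeR called 6% of genes changed by 3 on the log2 scale in the tamoxifen design and 2% in the control design, and 0 unchanged genes. The members and gene lists were chosen with earlier results of these data known. Outside the 8 RNAs, up to 3 genes of each list were named by their level in tamoxifen Input, plus Cx3cr1 and Tmem119, and for each RNA the 3 genes of highest correlation; Ftx was named after its value was seen.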

Additional observations from a re-analysis of the deposited data

Results flagged for a closer look

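In 60 groups, each of 8 tamoxifen libraries or of the 5 in the second set, the library farthest from the rest was checked. The check took its gap relative to the range of the group on the log2 scale. In 8 groups there was such a far library, where chance gives about 1 in 20. The groups of 5 lie within those of 8, so they are not separate chances. Neat1 stood at 29.5 CPM in MG_TRAP and at 33.8 CPM in PeMP_TRAP of F, each far above the other tamoxifen letters, and at 0.903 CPM in PeMP_TRAP of G within the second set. Rian stood at 21.7 CPM in PeMP_TRAP of E and at 0 in MG_TRAP of K. Snhg11 stood at 1.79 CPM in SN_input of D, far below the rest, and at 97.1 CPM in PeMP_TRAP of H. Kcnq1ot1 stood at 1.42 CPM in PeMP_TRAP of H, the other 4 letters of that set being at 0.

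The change on pull-down differed between homogenate and synaptosome fraction by 2.60 on the log2 scale for Malat1 and by -5.38 for Mirg, the second a fitted value for an RNA at 0 in PeMP_TRAP. The change differed between the sets, second minus first, by -5.71 for Rian and -7.68 for Miat in PeMP_TRAP against SN_input, and by -10.83 and -5.36 in PeMP_TRAP against MG_TRAP. These 4 are fitted values for RNAs at 0 in all second-set PeMP_TRAP libraries and are no measure of size.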

How the results depend on the processing

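Counts below are of the 8 RNAs called, with the share of all genes tested in brackets where a setting raised the count. SN_input against Input in tamoxifen mice gave 3, and 4 with DESeq2 (3.44%). It gave 0 in the first set alone, 1 in the second alone and 2 on leaving out any letter. MG_TRAP against Input gave 2, 0 in the first set alone, 1 in the second alone and 1 to 2 without a letter. PeMP_TRAP against SN_input gave 1, 3 with DESeq2 (42.1%), 0 and 3 (43.6%) in the sets alone and 1 to 3 without a letter (3 without E). PeMP_TRAP against MG_TRAP gave 3, and 5 with DESeq2 (34.7%), with its size factors in edgeR (28.4%) and with total counts (28.5%), 0 in the first set alone and 2 to 4 without a letter. The difference between pull-downs gave 2, 1 without the filter and with DESeq2, 0 and 4 (29.5%) in the sets alone and 1 to 3 without a letter (1 without G, H, I or K). Set differences in PeMP_TRAP gave 2 against SN_input (1 with DESeq2's size factors or no filter, 1 to 2 without a letter) and 2 against MG_TRAP (1 with no filter, 0 to 3, with 0 without E). PeMP_TRAP against SN_input in controls gave 0, 1 without the filter (0.0574%) and 8 with DESeq2 (10.1%). Its treatment difference gave 0, 1 without the filter (2.0%) or without mitochondrial genes (2.27%) and 5 with DESeq2 (14.5%). Tamoxifen against control in PeMP_TRAP gave 6, 7 with DESeq2 (31.1%) and 2 to 5 without a letter (2 without F, 3 without D). Leaving out controls A and B was a setting chosen after seeing the data. Without A and B the estimates for Malat1 (1.38), Miat (3.66), Snhg11 (0.26) and Kcnq1ot1 (6.52, with control C at 0) reversed, and without E the Rian set difference against SN_input did (-6.85 to 0.91 over left-out letters). The mean share in first-set tamoxifen SN_input was 0.1765% without mitochondrial genes, against 0.0710%. Malat1 in SN_input against Input lost its call only in the first set alone (-3.72). The cause was not tested; single sets and left-out letters hold fewer libraries.

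The letters were not taken to pair the libraries, since only 26 of 66 pairs of same-letter libraries had correlated deviations over 0.1 (median 0.0768, against -0.0146 for other letters). Some pairs did deviate together, such as Input and MG_TRAP of D, E and F (0.498, 0.23 and 0.296). With the letter as a replicate block, PeMP_TRAP against SN_input gave 2 calls (33.6% of all genes tested), the difference between pull-downs 1 (5.4%) and the set differences 1 and 1 (9.97% and 9.0%), and Snhg11 in SN_input against Input had an adjusted p of 0.0526. Depths down to 746616 reads limit what F could show in PeMP_TRAP, where 3 counts are 4.05 CPM.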
